A study of Mus musculus with 35 samples.

Results

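Cadherins are transmembrane proteins that hold neighbouring cells together by binding the same cadherin on the next cell in the presence of calcium, and the classical ones are tied to the actin cytoskeleton through catenins inside the cell. In liver, hepatocytes carry both E-cadherin and N-cadherin, endothelial cells carry VE-cadherin, and loss of E-cadherin is a familiar feature of epithelial cells that become motile. The genes described here are Cdh1 (E-cadherin), Cdh2 (N-cadherin), Cdh17 (LI-cadherin, of intestinal epithelium in mice), Cdh5 (VE-cadherin) and Cdh19 (a cadherin best known from the precursors of Schwann cells). They are 5 of the 18820 genes with a probe set of their own, each is represented by a single probe set, and each was followed through all 8 groups of samples. They were chosen by name, with earlier results of these data known, so counts of calls among them are a description.

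The arrays measured liver RNA of mice with tumors of 3 origins. In the DEN model, mice received the hepatocyte carcinogen diethylnitrosamine (10 mg per kg, injected into the peritoneum on day 15) and were examined at 9 months. In the LT model, the tg1223 line carries lymphotoxin alpha and beta expressed in the liver, with livers taken after 12 months. The MYC model combined TRE-MYC with LAP-tTA, in which a liver promoter drives MYC once doxycycline is absent. Doxycycline chow (200 mg per kg) was given until 8 weeks of age, and the age at collection is not given in the sources used here. The groups were DEN tumor, DEN non-tumorous liver (NTL) and DEN control (untreated mice) with 5 arrays each, LT tumor (3) and LT NTL (5), MYC tumor (5) and MYC NTL (3), and 4 control arrays from transgene-negative mice, which the LT and MYC models share. By the labels, controls had the sex and age of the other mice; no strain is named. MYC NTL is labelled as liver of MYC-overexpressing mice, but each of its 3 mouse identifiers starts with WT, and the genotype of that group is therefore uncertain.

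Tumor and NTL arrays of a model share no mouse identifier stem, so tissue and animal cannot be told apart. The 5 DEN tumors came from 3 stems (replicates 1 and 4 share one, as do 3 and 5) and the 3 LT tumors from 2 (replicates 1 and 2 share one). A shared stem was read as possibly 1 mouse, which the labels do not state. MYC tumor replicates 2 and 3 share only the first part of their identifiers and were counted as separate stems. If a stem is a mouse, p-values in the DEN and LT models count the spread between pieces of tissue as well as between mice. Xist, which coats the silent X chromosome of female cells, was high in 9 arrays. These were all LT tumors, 4 of 5 LT NTL arrays and 1 array in each control group, and it was low in the other 26. Albumin was at 13.6 to 13.8 on the log2 scale in every tumor array, so all tumors held hepatocyte RNA. In RNA from whole tissue, fewer cells of a type and less RNA per cell cannot be told apart.

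Values are log2 units of the authors' RMA normalization, and the levels of different genes were not set against each other because probes differ in brightness. A gene was called when its limma p, adjusted over all genes by the Benjamini-Hochberg method, was under 0.05. A value below the first quartile of its array, which lay between 4.128 and 4.245 over the arrays, lies close to the limit of detection, so it gives a direction and not a size. This held for Cdh17 in 23 of 35 arrays and for Cdh19 in 16, and for none of the Cdh1, Cdh2 and Cdh5 values. Over all arrays, Cdh17 spanned 6.57 log2 units, Cdh1 6.08, Cdh19 4.47, Cdh5 2.24 and Cdh2 1.20.

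In DEN tumors, Cdh1, Cdh5 and Cdh17 were higher than in NTL. In LT tumors, the called change was a rise of Cdh5, and in MYC tumors it was a fall of Cdh1. Thus 3 of 5 cadherins were called in DEN tumors, where 32.2% of all genes were called (15.6% higher), 1 of 5 in LT tumors, where 20.4% were (10.7% higher), and 1 of 5 in MYC tumors, where 21.8% were (10.3% lower). Counts called against NTL in the gene lists below are to be read beside these shares. Against controls, 4 of 5 were called in DEN tumors (30.7% of all genes), 3 of them higher (15% of all genes) and 1 lower (15.6%), and 2 of 5 in LT tumors (16.5%), both higher (8.78%). In MYC tumors, limma called 0 of 5 against controls (20.5% of all genes), with 2 at an unadjusted p under 0.05. In NTL against controls, limma called 0 of 5 in DEN (0.197% of all genes, and 0 cadherins at an unadjusted p under 0.05), 1 of 5 in LT (2.41%, and 1.37% higher) and 0 of 5 in MYC (3.83%, with 3 cadherins at an unadjusted p under 0.05). The LT and MYC comparisons with controls use the same 4 control arrays.

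The ranges of the groups gave a second description. In DEN tumors the arrays of 3 cadherins did not overlap those of NTL, where this held for 22.4% of all genes, nor those of controls (20.9%). In LT tumors it held for 2 cadherins against NTL (16.3%) and 1 against controls (18.5%), and in MYC tumors for 0 against NTL (26.9%) and 1 against controls (17.5%). NTL and controls did not overlap for 2 cadherins in DEN (4.68%), 3 in LT (8.17%) and 3 in MYC (22.1%).

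**Figure D1:**
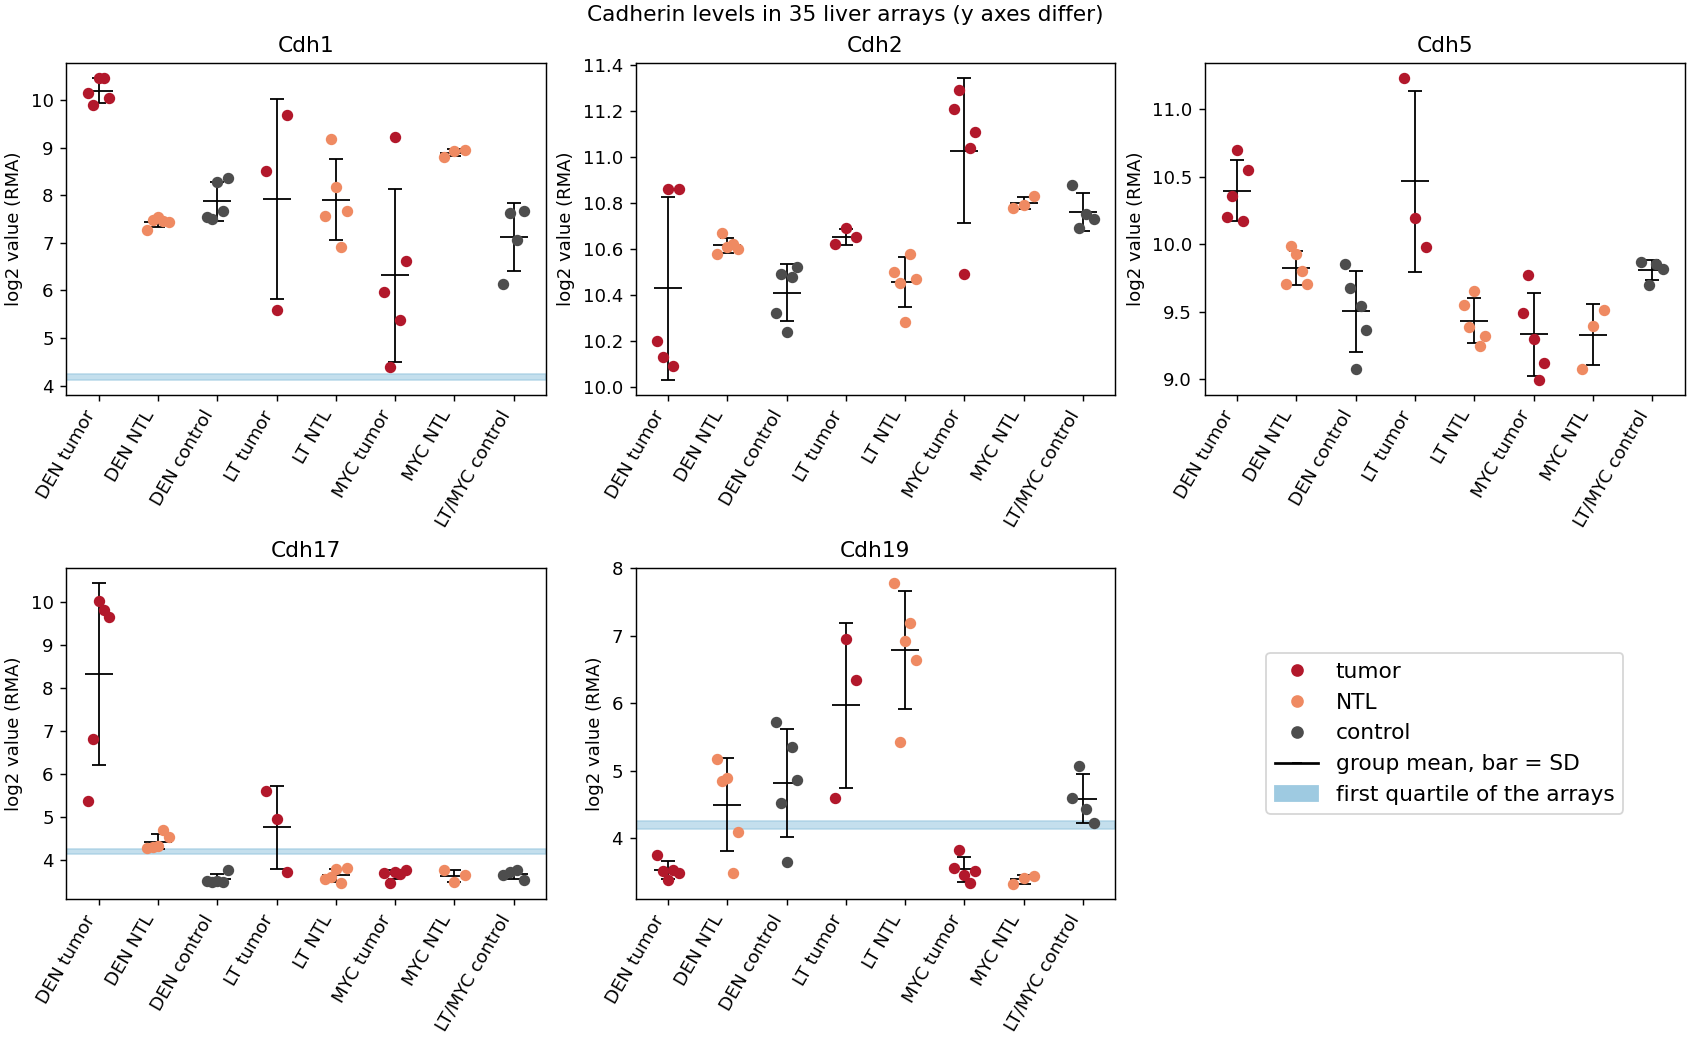
Log2 value of each cadherin in each of 35 arrays, by group, with tumors in red, NTL in orange and controls in grey. Bars give the group mean and SD, and the blue band is the first quartile of the arrays. Cdh1 is at 9.89 or above in all DEN tumors, and Cdh17 is above 9.6 in 3 of them.

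**Figure D2:**
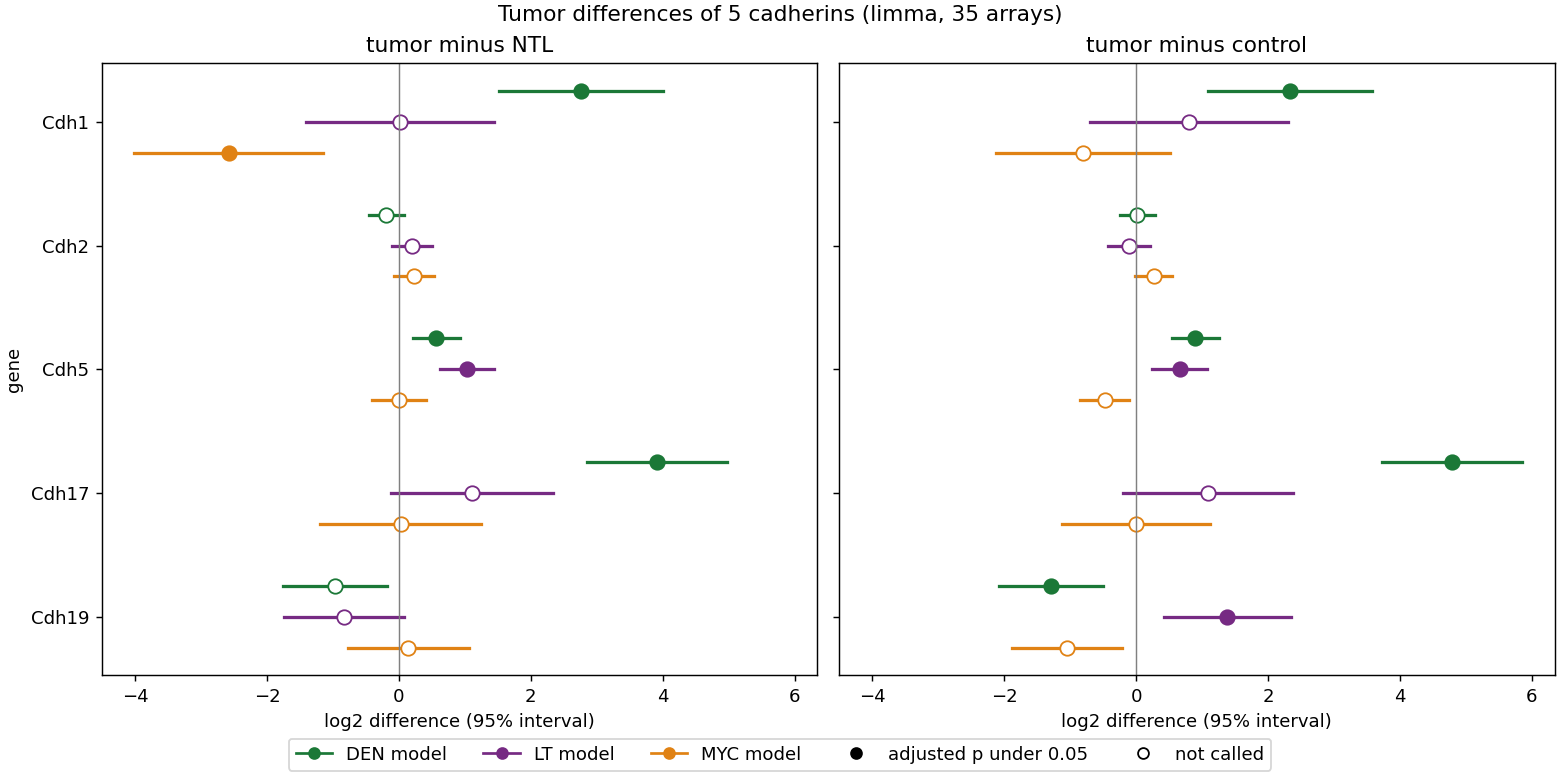
Log2 difference of each cadherin between tumor and NTL (left) and between tumor and control (right), with its 95% interval from limma, in green for DEN, purple for LT and orange for MYC. Filled points were called. Cdh1 lies at 2.76 in DEN and -2.58 in MYC tumors against NTL.

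E-cadherin, encoded by Cdh1, joins hepatocytes, mainly those near the portal vein, and bile duct cells, and binds beta-catenin on its inner side. Cdh1 measured 10.14, 9.89, 10.46, 10.46 and 10.04 in DEN tumors, against 7.26, 7.47, 7.55, 7.46 and 7.45 in DEN NTL and 7.54, 7.50, 8.27, 7.67 and 8.36 in DEN controls. Every DEN tumor lay above every DEN NTL and control array, and the tumors differed little among themselves (10.20 ± 0.25, SD, n = 5). The rise was 6.78-fold over NTL (2.76 ± 0.61 log2 units, SE, limma adjusted p = 0.000697) and 2.33 ± 0.61 over controls (adjusted p = 0.00327). The exact two-sided permutation p was 0.00794 in both, the smallest that 5 against 5 arrays allow, and 0.0357 adjusted over the 45 permutation tests of the cadherins. The test shuffled single arrays, although the 5 DEN tumors came from 3 stems, so these p-values may be too small. DEN NTL was at 7.44 ± 0.11 and DEN controls at 7.87 ± 0.41 (SD, n = 5 each), a difference of -0.43 that was not called (adjusted p = 0.887).

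The same gene took the opposite direction in MYC tumors, with an exception among them. Cdh1 measured 5.97, 4.39, 9.23, 5.38 and 6.61 in MYC tumors, 8.81, 8.92 and 8.96 in MYC NTL and 6.14, 7.62, 7.07 and 7.66 in the shared controls. Replicates 1, 2, 4 and 5 lay below all MYC NTL arrays and replicate 3 above them. The mean fell by 2.58 ± 0.70 (5.98-fold, adjusted p = 0.00807), and without replicate 3 it fell by 3.31 (adjusted p = 0.000137). The groups overlapped, and the exact permutation p was 0.125. The call was also lost when only these 2 groups entered the fit (adjusted p = 0.0739). MYC NTL, at 8.90 ± 0.08 (SD, n = 3), lay above every shared control (7.12 ± 0.71, SD, n = 4), by 1.77 ± 0.73 (adjusted p = 0.193). With only these 2 groups in the fit (adjusted p = 0.0141) or with array weights (1.94, adjusted p = 0.00576) this rise was called. Against controls the tumors differed by -0.81 ± 0.64 (adjusted p = 0.42), which became -1.54 and was called without MYC tumor replicate 3 (adjusted p = 0.0427).

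In LT tumors, Cdh1 scattered widely and no shift of the mean was called. It measured 8.50, 5.59 and 9.68 in LT tumors, and 7.57, 9.19, 8.18, 6.91 and 7.68 in LT NTL. Replicate 2 was the lowest and replicate 3 the highest of these 8 arrays, and replicates 1 and 2, which share a stem, differed by 2.91. The difference of means was 0.02 ± 0.70 (adjusted p = 0.992), with a 95% interval of -1.41 to 1.45, so a change of either sign and more than 2-fold was within the error. Leaving out 1 array at a time moved it between -0.86 and 1.19. Ordered by mean, the 8 groups ran from DEN tumor (10.20) over MYC NTL (8.90), LT tumor (7.92), LT NTL (7.91), DEN control (7.87), DEN NTL (7.44) and the shared controls (7.12) to MYC tumor (6.32). DEN tumor was the only group of this order whose range did not overlap that of its next neighbour.

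N-cadherin, encoded by Cdh2, is the second classical cadherin of hepatocytes. In many carcinomas of other tissues it appears where E-cadherin is lost. Cdh2 measured 10.20, 10.13, 10.86, 10.09 and 10.86 in DEN tumors, against 10.58, 10.67, 10.61, 10.62 and 10.60 in DEN NTL and 10.32, 10.49, 10.24, 10.48 and 10.52 in DEN controls. DEN tumor replicates 3 and 5, of one stem, lay above all NTL and control arrays, and replicates 1, 2 and 4 lay below all of them. The means were close (-0.19 ± 0.13 against NTL, adjusted p = 0.279, and 0.02 ± 0.13 against controls, adjusted p = 0.937).

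In MYC tumors, Cdh2 measured 11.21, 11.29, 10.49, 11.04 and 11.11, against 10.78, 10.79 and 10.83 in MYC NTL and 10.88, 10.69, 10.75 and 10.73 in the shared controls. All but replicate 3 lay above every NTL and control array, and replicate 3 lay below them all. The difference was 0.23 ± 0.15 from NTL (adjusted p = 0.301) and 0.26 ± 0.14 from controls (adjusted p = 0.18). Without replicate 3 it was 0.36 from NTL (adjusted p = 0.0502) and 0.40 from controls, which was called (adjusted p = 0.0193). LT tumors, at 10.62, 10.69 and 10.65, lay just above LT NTL at 10.50, 10.45, 10.28, 10.58 and 10.47, with a difference of 0.20 ± 0.15 that was not called (adjusted p = 0.384, 95% interval -0.11 to 0.50). LT NTL in turn lay below all shared controls, by -0.31 ± 0.14 (adjusted p = 0.265, exact permutation p = 0.00794, and 0.0357 adjusted over the 45 tests).

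Hepatocytes divide their work by position, with urea and glucose synthesis near the portal vein and glutamine synthesis and many P450 enzymes around the central vein. The following comparison of both cadherins with genes of each zone was chosen after the values were seen and is a description. The mean level of 12 pericentral genes was 8.24, 7.47, 10.27, 8.00 and 10.13 in DEN tumors 1 to 5 and 11.10, 11.00, 7.47, 10.70 and 11.04 in MYC tumors 1 to 5. In NTL and controls it stayed between 9.29 and 9.98. Among DEN and MYC tumors, those with Cdh2 above NTL and controls, DEN replicates 3 and 5 and MYC replicates 1, 2, 4 and 5, were those with a pericentral mean above 10, and those with low Cdh2 had a mean of 8.24 or less. LT tumors 1, 2 and 3 had pericentral means of 10.67, 10.57 and 9.81 beside nearly equal Cdh2 values. Of the 12 pericentral genes, 0 were higher and 3 lower in DEN tumors than in NTL (median -0.89), and 2 were higher and 0 lower in MYC tumors (median 0.67). Limma called 0 in LT tumors, with 3 at an unadjusted p under 0.05. Cyp1a2 and Cyp27a1, both P450 enzymes, fell by 1.74 and 1.30 in DEN tumors (adjusted p = 0.0141 and 0.000141). Nkd1 and Sp5, targets of Wnt signalling, rose by 1.46 ± 0.47 and 0.84 ± 0.25 in MYC tumors (adjusted p = 0.0255 and 0.0162).

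For Cdh1, the mean level of 9 periportal genes was 9.69, 8.84, 11.40, 9.94 and 10.15 in MYC tumors 1 to 5 and 10.32, 10.02 and 11.59 in LT tumors 1 to 3. In both models the tumor with the highest periportal mean, MYC replicate 3 and LT replicate 3, had the highest Cdh1. The tumor with the lowest periportal mean, MYC replicate 2 and LT replicate 2, had the lowest. DEN tumors did not share this order. Their periportal means were 11.18, 11.59, 9.45, 10.97 and 9.57, and Cdh1 was at 9.89 or above in all of them. Of the periportal genes, 1 of 9 was higher and 5 were lower in DEN tumors than in NTL (median -0.96, against -0.04 over all genes), 0 were higher and 1 was lower in LT tumors, and 0 were higher and 5 were lower in MYC tumors. Cyp2f2, a P450 of periportal hepatocytes, fell in all 3 models, with changes of -3.35 in DEN tumors, -2.57 in the LT model and -2.53 in MYC tumors (adjusted p = 0.000555, 0.0267 and 0.0278). The part of zonation in the cadherin values was not tested.

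**Figure D3:**
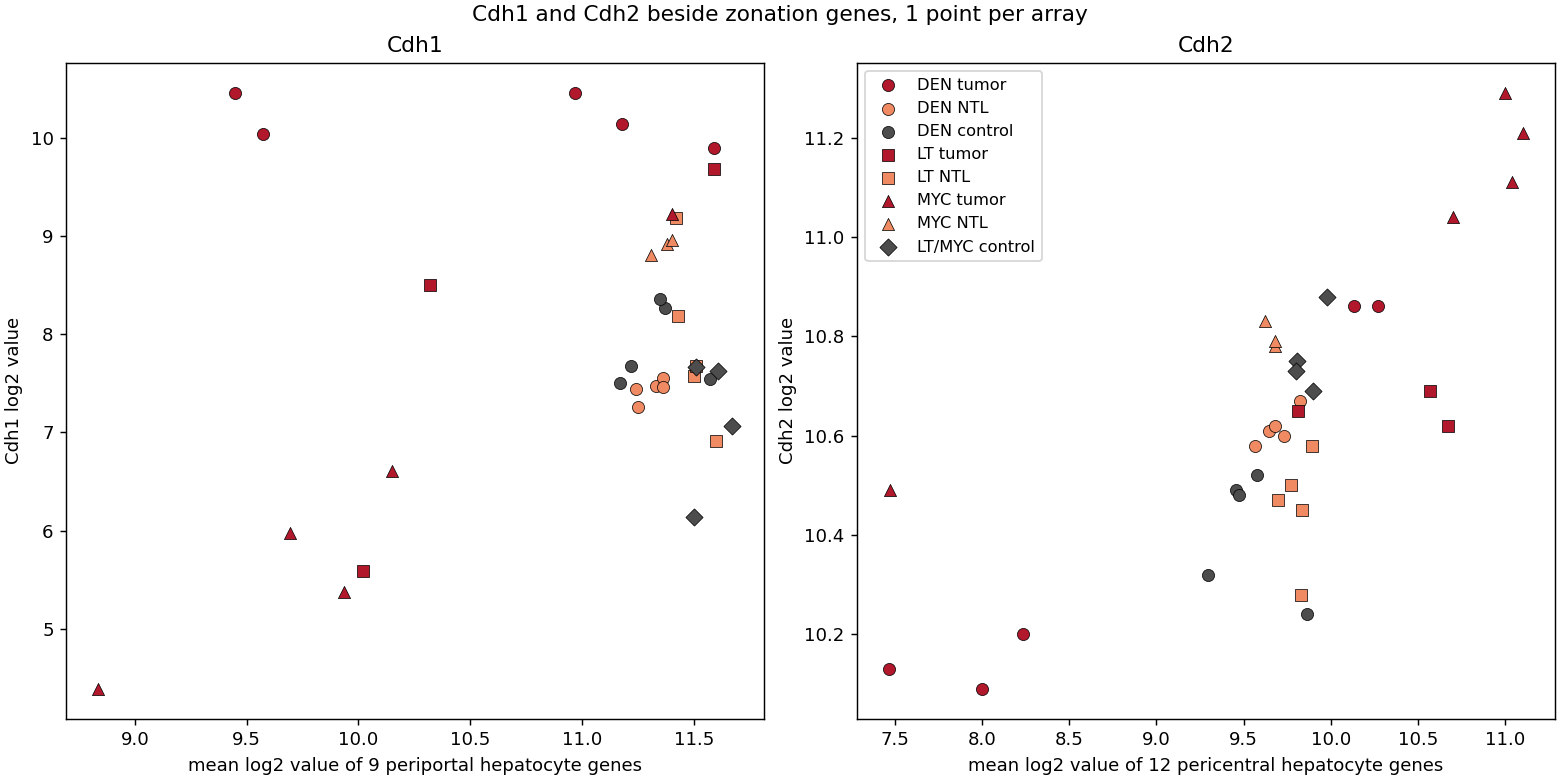
Log2 value of Cdh1 against the mean log2 value of 9 periportal genes (left) and of Cdh2 against that of 12 pericentral genes (right), 1 point per array. The tumors with a pericentral mean of 8.24 or less have Cdh2 values of 10.09 to 10.49. DEN tumors keep high Cdh1 over the whole range of the periportal mean.

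Bile duct cells also carry E-cadherin, so their markers are given beside Cdh1. Of 11 cholangiocyte and ductular markers measured, 5 were higher and 0 lower in DEN tumors than in NTL (median 0.62), 2 were higher and 1 lower in LT tumors, and 0 were higher and 1 lower in MYC tumors (median -0.46). In DEN tumors the stem and progenitor marker Prom1 rose by 3.49 ± 0.44 and Sox9, a factor of duct cells, by 1.93 ± 0.24 (adjusted p = 3.66e-07 and 2.1e-07). The defining duct keratin Krt19 stood at 5.10 ± 0.39 in DEN tumors and 5.18 ± 0.12 in DEN NTL, and Epcam at 5.13 ± 0.80 in DEN tumors and 4.34 ± 0.24 in DEN NTL (SD, n = 5 each). These markers were chosen after their values were seen. The mean of the list was 6.31 to 7.18 in DEN tumors and 5.63 to 5.91 in DEN NTL, 5.72 to 6.61 in LT tumors and 5.80 to 6.28 in LT NTL, and 5.03 to 5.44 in MYC tumors and 5.696 to 5.78 in MYC NTL. In LT tumors Prom1 and Bicc1 rose by 1.84 ± 0.51 and 1.19 ± 0.40 (adjusted p = 0.0101 and 0.0353), and Onecut1 fell by 2.13 (adjusted p = 0.0259). The part of duct cells in the Cdh1 values was not tested. Of 11 hepatocyte markers, 4 were higher and 0 lower in DEN tumors, 0 higher and 1 lower in LT tumors, and 0 higher and 4 lower in MYC tumors, where Cps1, of the urea cycle, fell by 0.76 (adjusted p = 0.00461).

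Catenins and other partners of the adherens junction came next. Of 20 such genes, 10 were higher and 2 lower in DEN tumors than in NTL (median 0.24, against -0.04 over all genes), 4 were higher and 0 lower in LT tumors (median -0.04), and 4 were higher and 3 lower in MYC tumors (median -0.11). In DEN tumors, the largest rises were those of Ajuba, a LIM protein of junctions and of Hippo signalling, at 1.02 ± 0.20 (adjusted p = 0.000167) and Plekha7, which anchors microtubules at the junction, at 0.93 ± 0.15 (adjusted p = 2.08e-05). Arvcf, a relative of p120 catenin, fell by 0.50 in DEN tumors (adjusted p = 0.00233). In LT tumors, Ctnnd1, p120 catenin, which keeps cadherins at the surface, rose by 0.39 ± 0.08 (adjusted p = 0.000609). Ctnnal1, a relative of alpha-catenin, rose by 0.40 ± 0.14 in LT tumors (adjusted p = 0.0464). MYC tumors had higher Ajuba (1.44 ± 0.23, adjusted p = 3.88e-05) and Nectin1, an adhesion molecule of the same junction (0.55 ± 0.12, adjusted p = 0.000936). Ctnnbip1, an inhibitor of beta-catenin, fell by 1.10 in MYC tumors (adjusted p = 0.00443). Beta-catenin itself, Ctnnb1, averaged 11.34 ± 0.13 in DEN tumors and 10.71 ± 0.02 in DEN NTL, and 10.89 ± 0.08 in MYC tumors (n = 5) and 10.69 ± 0.07 in MYC NTL (n = 3). It was named after its values were seen.

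Proteins of the tight junctions seal the bile canaliculi between hepatocytes. Of 18 of their genes, 9 were higher and 1 lower in DEN tumors than in NTL (median 0.47), 3 were higher and 2 lower in LT tumors (median 0.04), and 4 were higher and 0 lower in MYC tumors (median 0.10). Marveld2 (tricellulin) rose by 1.44 ± 0.13 and F11r (junctional adhesion molecule A) by 1.20 ± 0.10 in DEN tumors, with adjusted p = 5.68e-10 and 1.09e-10. The claudin Cldn12 fell by 0.71 in DEN (adjusted p = 7.73e-05) and by 1.01 in LT tumors (adjusted p = 3.77e-05). In LT tumors the claudins Cldn1 and Cldn2 rose by 0.95 ± 0.25 and 0.69 ± 0.21 (adjusted p = 0.00727 and 0.0201). In MYC tumors Cldn2 rose by 1.02 ± 0.21 and Tjp3, a scaffold of the zonula occludens, by 1.01 ± 0.27 (adjusted p = 0.000802 and 0.00691).

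Of 10 desmosome genes, whose proteins include the desmosomal cadherins, 4 were higher and 0 lower in DEN tumors (median -0.02), 3 higher and 1 lower in LT tumors, and 1 higher and 0 lower in MYC tumors. The desmosomal cadherins Dsc2 and Dsg2 rose by 0.71 ± 0.12 and 0.56 ± 0.13 in DEN tumors (adjusted p = 4.21e-05 and 0.00101), and Dsc2 by 0.73 ± 0.14 in LT tumors (adjusted p = 0.000515). The plakophilin Pkp1 rose by 0.46 ± 0.15 in LT tumors (adjusted p = 0.0246), and Pkp2 by 0.66 ± 0.14 in MYC tumors (adjusted p = 0.000583). Perp, a desmosome protein and p53 target, fell by 2.69 in LT tumors (adjusted p = 0.000372).

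Transcription factors known from epithelial cells that become motile, some of which repress E-cadherin, were set beside Cdh1. Of 12 such factors, 2 were higher and 2 lower in DEN tumors, 3 were higher and 0 lower in LT tumors, and 0 were higher and 1 lower in MYC tumors. Zeb2 fell by 0.65 in DEN (adjusted p = 0.00124) and by 0.54 in MYC tumors (adjusted p = 0.0251), and rose by 0.49 ± 0.17 in LT tumors (adjusted p = 0.0457). Against NTL, it thus fell in DEN tumors, where Cdh1 rose, and in MYC tumors, where the mean of Cdh1 fell. The part of these factors in the Cdh1 values was not tested. Zeb1 and Tcf3 rose in DEN tumors, by 0.35 ± 0.09 and 0.41 ± 0.09 (adjusted p = 0.00221 and 0.000838), and Prrx1, a factor of mesenchymal cells, by 1.20 ± 0.39 in LT tumors (adjusted p = 0.0294). Endothelial and stellate cells express Zeb factors as well, and their part in these values was not tested.

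**Figure D4:**
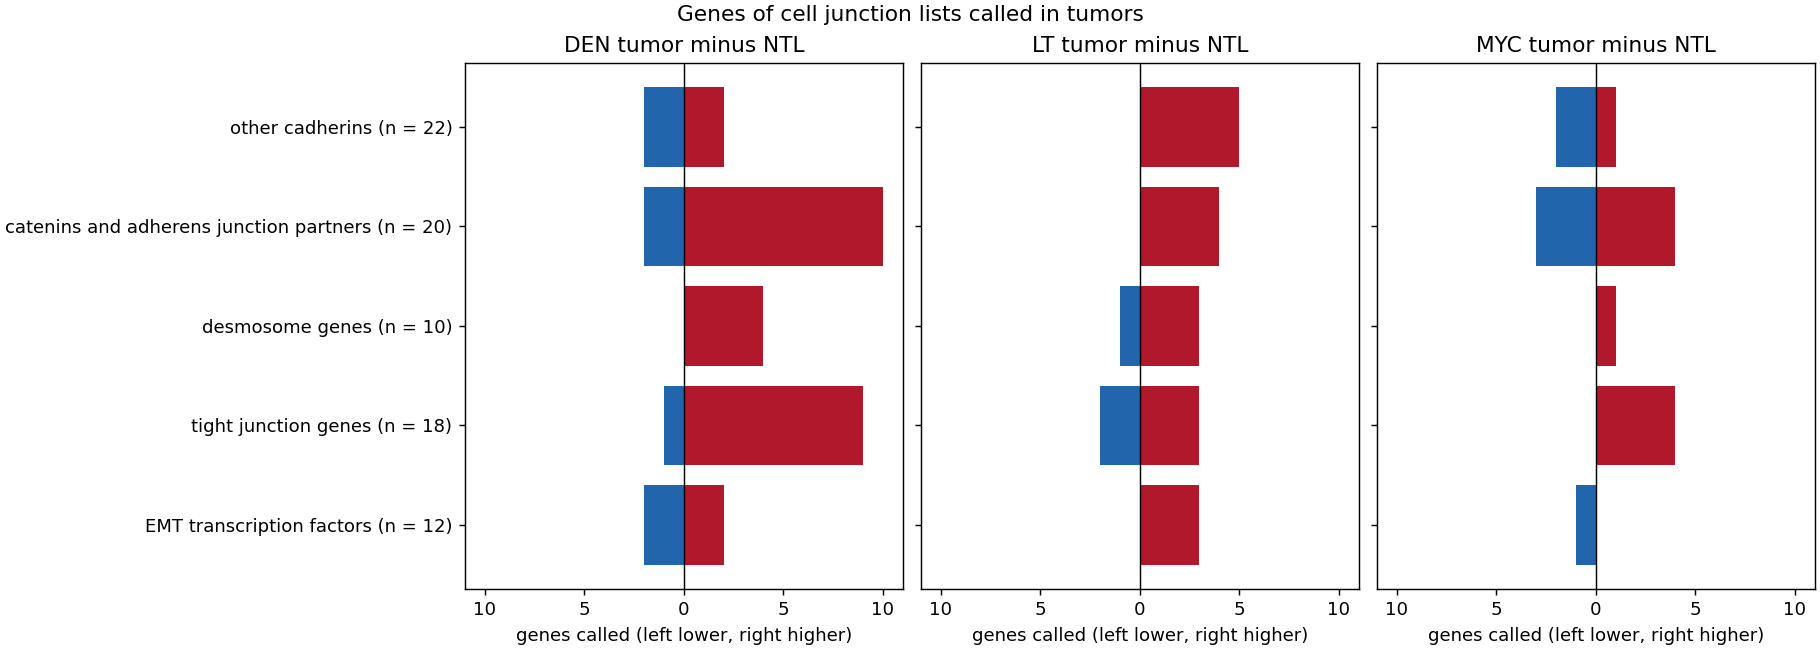
Number of genes called lower (blue, left) and higher (red, right) in tumor against NTL in 5 lists, for each model. The lists hold cadherin and junction genes and transcription factors known from epithelial cells that become motile. In DEN tumors 10 of 20 adherens junction partners and 9 of 18 tight junction genes were higher.

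LI-cadherin, encoded by Cdh17, is a cadherin with a short inner tail that does not bind catenins. In mice it belongs to intestinal epithelium, and in humans it is known from liver and gastrointestinal cancers. Cdh17 measured 5.36, 6.81, 10.03, 9.81 and 9.66 in DEN tumors, against 4.28, 4.28, 4.31, 4.68 and 4.53 in DEN NTL and 3.51, 3.48, 3.51, 3.49 and 3.77 in DEN controls. The 3 groups did not overlap. Tumor replicates 3, 4 and 5 stood far above replicates 1 and 2, and replicates 1 and 4, which share a stem, differed by 4.45. Tumors lay 15.1-fold above NTL (3.92 ± 0.52 log2 units, adjusted p = 7.94e-07) and 4.78 ± 0.52 above controls (adjusted p = 1.99e-08). DEN control values were all below the first quartile of their arrays, so the size of the rise over controls is uncertain. DEN NTL values, at 4.28 to 4.68, lay not far above it, so the fold over NTL is uncertain as well.

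DEN NTL also exceeded DEN controls, by 0.87 ± 0.52 log2 units. In the fit over all arrays, whose spread for Cdh17 is dominated by the tumors, this was not called (adjusted p = 0.63). With only these 2 groups in the fit it was (adjusted p = 0.000994), and the exact permutation p was 0.00794 (0.0357 adjusted over the 45 tests). In LT tumors Cdh17 measured 5.60, 4.94 and 3.70, and in LT NTL 3.55, 3.60, 3.79, 3.45 and 3.80. LT tumor replicates 1 and 2, of one stem, were above the NTL range and replicate 3 was within it. The difference of 1.11 ± 0.60 was not called (adjusted p = 0.204). All LT NTL arrays and LT tumor replicate 3 were below the first quartile of their arrays, so its size is uncertain. In all MYC tumors, MYC NTL and shared controls Cdh17 stayed between 3.47 and 3.76, below the first quartile of each array, so it was not measurable above the lower limit there.

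Other genes of intestinal epithelium were mixed in DEN tumors, with 5 of 13 higher and 2 lower than in NTL (median -0.10), and 0 were higher and 1 lower in MYC tumors. Limma called 0 in LT tumors, with 2 at an unadjusted p under 0.05. Tspan8, a tetraspanin, rose by 3.76 ± 0.47 (adjusted p = 3.38e-07), and Vil1, the actin bundler villin, by 2.78 ± 0.70 (adjusted p = 0.00254). Lgals4, an intestinal galectin, fell by 1.499 in DEN tumors (adjusted p = 0.000189), and it fell by 1.315 in MYC tumors (adjusted p = 0.00544). The mean of the list was 5.92 to 6.70 in DEN tumors, 5.38 to 5.67 in DEN NTL and 5.30 to 5.64 in DEN controls. Cdx2, the transcription factor that defines intestinal epithelium and is known to drive Cdh17 there, was below the first quartile in all DEN tumors. So it was in 4 of 5 DEN NTL arrays and 4 of 5 DEN controls. Its means were 3.86 in DEN tumors, 4.08 in DEN NTL and 4.00 in DEN controls. The related Cdx1 averaged 5.65 in DEN tumors and 5.75 in DEN NTL, with 0 arrays below the first quartile. Both were named after their values were seen, and their part in the Cdh17 values was not tested.

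The genes whose levels followed Cdh17 most closely over the 35 arrays were Afp (Pearson r = 0.953), Tspan5 (0.948) and Kif5c (0.946). These correlations describe the arrays only, since most points are low arrays of 7 groups and the high points are a few DEN tumors. Afp, alpha-fetoprotein of the fetal liver, measured 6.45, 9.96, 11.96, 11.91 and 11.36 in DEN tumors 1 to 5, against 6.53 to 7.18 in DEN NTL and 4.73 to 5.01 in DEN controls. The DEN tumor lowest in Cdh17, replicate 1, was also the lowest in Afp and lay below the Afp range of NTL, while its Cdh17 of 5.36 was still above the NTL range. Kif5c, a kinesin of axons, averaged 7.88 ± 1.35 in DEN tumors, 4.62 ± 0.16 in DEN NTL and 4.09 ± 0.09 in DEN controls.

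**Figure D5:**
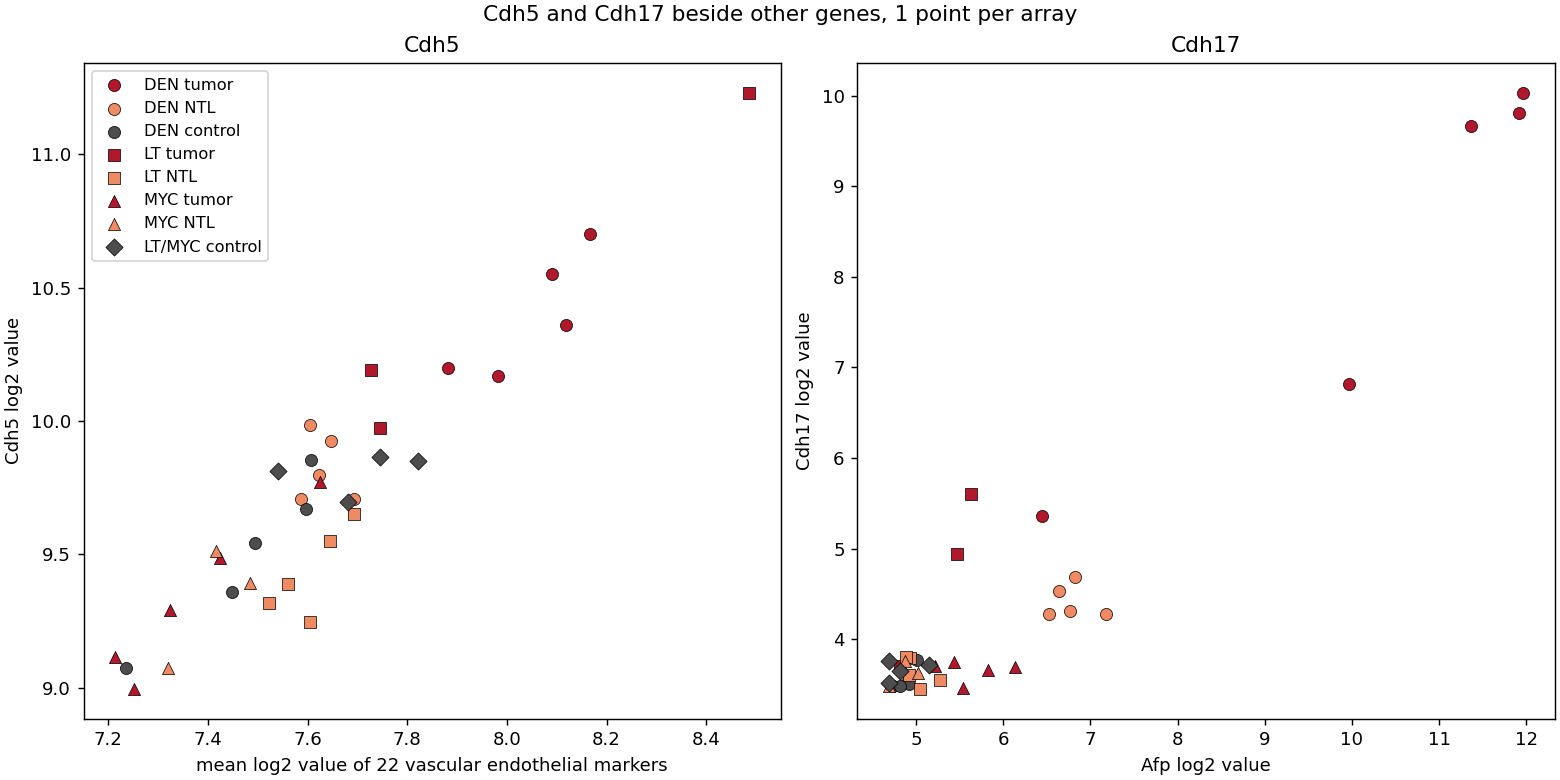
Log2 value of Cdh5 against the mean log2 value of 22 vascular endothelial markers (left), and of Cdh17 against Afp (right), 1 point per array. LT tumor replicate 1 is highest on both axes of the left panel, at 11.23 and 8.49, and in the right panel 4 DEN tumors stand apart with Afp of 9.96 or more.

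VE-cadherin, encoded by Cdh5, joins endothelial cells to each other and is a standard marker of them. Cdh5 measured 10.20, 10.36, 10.70, 10.17 and 10.55 in DEN tumors, against 9.71, 9.98, 9.93, 9.80 and 9.71 in DEN NTL and 9.85, 9.67, 9.07, 9.54 and 9.36 in DEN controls. Every tumor lay above every NTL and control array. The rise was 1.49-fold over NTL (0.57 ± 0.17 log2 units, adjusted p = 0.0107) and 0.89 ± 0.17 over controls (adjusted p = 0.000132). In both, the exact permutation p was 0.00794.

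In LT tumors, Cdh5 measured 11.23, 10.19 and 9.97, against 9.55, 9.39, 9.65, 9.25 and 9.32 in LT NTL and 9.87, 9.70, 9.85 and 9.81 in the shared controls. All tumors lay above all NTL arrays, with replicate 1 far above the other two. The rise over NTL was 2.05-fold (1.04 ± 0.20, adjusted p = 0.000448) and without LT tumor replicate 1 it was 0.65, with the call kept (adjusted p = 0.0219). The exact permutation p was 0.0179, the smallest that 3 against 5 arrays allow. Adjusted over the 45 tests it was 0.0575, and in a fit of only these 2 groups the call was lost as well (adjusted p = 0.0642). Against controls the rise was 0.66 ± 0.21 (adjusted p = 0.0277). Leaving out LT tumor replicate 1 ended that call (0.28, adjusted p = 0.422), as did leaving out control replicate 2 (adjusted p = 0.0684) or 4 (adjusted p = 0.0503). It was also lost with only these 2 groups in the fit (adjusted p = 0.248), with array weights (adjusted p = 0.0951), with arrays of one stem averaged (0.54, adjusted p = 0.0949) and with the term for high Xist (0.77, adjusted p = 0.0557). With the replicate number as a block it was 0.6143 (adjusted p = 0.0499). The exact permutation p was 0.0286 (0.0677 adjusted over the 45 tests). MYC tumors, at 9.49, 9.77, 9.29, 9.00 and 9.12, overlapped MYC NTL at 9.08, 9.39 and 9.51, and the difference was 0.0046 ± 0.20 (adjusted p = 0.991, 95% interval -0.40 to 0.41). Against controls it was -0.47 ± 0.18 (adjusted p = 0.063). This was called without MYC tumor replicate 2 (-0.58, adjusted p = 0.0261) and with only these 2 groups in the fit (adjusted p = 0.0484). With arrays of one stem averaged it was called too (adjusted p = 0.0266), but no arrays of these 2 groups share a stem. The averaging left the difference unchanged and acted through the other groups of the fit.

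Other markers of vascular endothelium rose widely in DEN tumors, with 13 of 22 higher and 2 lower than in NTL (median 0.46). In LT tumors 7 were higher and 2 lower (median 0.26), and in MYC tumors 3 were higher and 6 lower (median -0.04). The mean of these 22 genes was 7.88 to 8.17 in DEN tumors and 7.59 to 7.69 in DEN NTL, 8.49, 7.73 and 7.75 in LT tumors 1 to 3 and 7.52 to 7.69 in LT NTL, and 7.21 to 7.62 in MYC tumors and 7.32 to 7.48 in MYC NTL. LT tumor replicate 1, the highest in Cdh5, was the highest of all arrays in this mean. Cd34, a sialomucin of capillary endothelium, rose in each model, by 2.28 ± 0.33 (DEN), 2.32 ± 0.39 (LT) and 1.5 ± 0.39 (MYC) (adjusted p = 3.72e-06, 0.000118 and 0.00529), also in MYC tumors, where Cdh5 did not pass the test. The endothelial mucin Emcn rose by 1.46 ± 0.27 in DEN tumors (adjusted p = 7.57e-05) and von Willebrand factor, Vwf, by 1.45 ± 0.30 in LT tumors (adjusted p = 0.000891). The receptor Tek fell by 0.64 in DEN tumors (adjusted p = 0.00174), and the phosphatase Ptprb, a partner of VE-cadherin, by 0.83 in LT (adjusted p = 0.00733) and 0.78 in MYC tumors (adjusted p = 0.011). Plvap, of fenestrated capillaries, fell by 1.16 in MYC tumors (adjusted p = 6.16e-05).

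Markers of the sinusoidal endothelium, the fenestrated lining of liver capillaries, were called lower more often than higher in each model. They were lower in 8 of 14 and higher in 1 in DEN tumors (median -0.69), lower in 7 in LT tumors (median -0.90) and lower in 6 in MYC tumors (median -0.76), with 0 called higher by limma in LT and MYC tumors. Rspo3 and Ehd3 changed by -1.79 and -1.53 in DEN tumors (adjusted p = 5.59e-08 and 0.00145), while Gpr182 rose by 0.93 ± 0.29 (adjusted p = 0.015). The lectin Clec4g and the nuclease Dnase1l3 fell by 1.90 and 1.83 in LT tumors (adjusted p = 0.00741 and 0.000967). Bmp2 and Oit3 fell by 1.16 and 1.04 in MYC tumors (adjusted p = 0.0348 and 0.0456).

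Stellate cell and fibroblast markers moved with Cdh5 in LT tumors, where 8 of 15 were higher and 0 lower (median 0.99). Acta2, the actin of contractile cells, rose by 2.57 ± 0.53 there and the collagen Col1a1 by 2.12 ± 0.38 (adjusted p = 0.000818 and 0.000206). The mean of the list was 10.04 in LT tumor replicate 1, 8.57 in replicate 2 and 8.56 in replicate 3, and 7.97 to 8.33 in LT NTL. In DEN tumors 4 were higher and 4 lower, with Acta2 at 1.77 ± 0.46 (adjusted p = 0.00318) and Lrat, of quiescent stellate cells, at -1.59 ± 0.29 (adjusted p = 9.68e-05). In MYC tumors 0 were higher and 7 lower, among them Dcn, which fell by 1.64 (adjusted p = 0.000367). The part of these cells in the Cdh5 values was not tested. Over the 35 arrays, Rhoj, a GTPase of endothelial cells (r = 0.941), Msn, the actin linker moesin (0.934), and Trp53i11 (0.927) were the genes nearest to Cdh5.

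Cdh19 encodes a type II cadherin of nerve-associated glial precursors, and its role in liver is not established. It was highest in the LT model. Cdh19 measured 7.79, 5.42, 6.93, 7.18 and 6.64 in LT NTL, against 4.60, 5.07, 4.44 and 4.23 in the shared controls. Every LT NTL array lay above every control. The rise was 4.62-fold (2.21 ± 0.41 log2 units, adjusted p = 0.00335), and the call held whichever of the 9 arrays was left out (adjusted p of at most 0.0142). The exact permutation p was 0.0159, and 0.055 adjusted over the 45 tests. Cdh19 was the only one of the 5 cadherins that limma called between NTL and controls in any model.

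The LT groups also differ from controls in Xist. LT NTL replicates 1, 3, 4 and 5 had high Xist and Cdh19 of 6.64 to 7.79, and replicate 2, with low Xist, had the lowest Cdh19 of the group, 5.42, still above every control. Control replicate 3, with high Xist, had 4.44. In a fit with a term for high Xist the rise was 2.196 (adjusted p = 0.0214). High Xist was found in 4 of 5 LT NTL arrays and 1 of 4 shared controls, so sex and model cannot be fully told apart. The part of sex in the Cdh19 values was not tested. The high-Xist array of the DEN controls, replicate 3, had the lowest Cdh19 of its group, 3.65. Cyp3a44, a P450 that is more abundant in livers of female mice, was the gene most like Cdh19 over the 35 arrays (r = 0.811), followed by Trim80 (0.807) and Wnt5b (0.794), and averaged 10.29 ± 0.97 in LT NTL (n = 5) and 8.50 ± 0.52 in the shared controls (n = 4).

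In LT tumors, Cdh19 measured 4.59, 6.95 and 6.35. Replicates 2 and 3 lay above all shared controls and replicate 1 lay within their range. The mean exceeded controls by 1.38 ± 0.47 (adjusted p = 0.0403). This call was lost without LT tumor replicate 2 (0.89, adjusted p = 0.256) or 3 (adjusted p = 0.103) and without control replicate 1, 3 or 4 (adjusted p = 0.0664, 0.0746 and 0.0952). It was also lost with the replicate number as a block (1.34, adjusted p = 0.0687), with only these 2 groups in the fit (adjusted p = 0.218), with array weights (adjusted p = 0.189), with arrays of one stem averaged (1.48, adjusted p = 0.0527) and with the term for high Xist (1.365, adjusted p = 0.137). The exact permutation p was 0.0857 (0.143 adjusted over the 45 tests). LT tumors were not distinguishable from LT NTL (-0.83 ± 0.45, adjusted p = 0.204, 95% interval -1.74 to 0.08), and the difference without LT tumor replicate 1 was the smallest of the fits that left out an array, at -0.14.

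In DEN tumors, Cdh19 measured 3.75, 3.50, 3.37, 3.52 and 3.49, against 5.17, 4.84, 4.89, 3.48 and 4.09 in DEN NTL and 5.72, 4.51, 3.65, 5.35 and 4.85 in DEN controls. All DEN tumors were below the first quartile of their arrays, as were 2 NTL arrays and 1 control. Cdh19 was lower than in controls by -1.29 ± 0.39 log2 units (adjusted p = 0.0103, exact permutation p = 0.0159, and 0.055 adjusted over the 45 tests) and the difference from NTL was -0.97 ± 0.39 (adjusted p = 0.0548). Without DEN NTL replicate 4 that difference was -1.22 and called (adjusted p = 0.0197), as it was with only these 2 groups in the fit (adjusted p = 0.0224). MYC tumors, at 3.55, 3.82, 3.45, 3.33 and 3.50, and MYC NTL, at 3.31, 3.41 and 3.43, were all below the first quartile, while the 4 shared controls were at or above it. The MYC tumors differed from controls by -1.05 ± 0.41 (adjusted p = 0.0677). This was called with only these 2 groups in the fit (adjusted p = 0.00216) and with array weights (adjusted p = 0.0406). With arrays of one stem averaged it was called too (adjusted p = 0.039), though no arrays of MYC tumors or shared controls share a stem. MYC tumors and shared controls did not overlap (exact permutation p = 0.00794, and 0.0357 adjusted over the 45 tests).

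Cdh19 is known from Schwann cell precursors, so markers of Schwann cells and neural crest were set beside it. In LT NTL against controls limma called 0 of 9 measured, with 0 at an unadjusted p under 0.05. In tumors against NTL, 0 were higher and 2 lower in DEN, 2 were higher and 0 lower in LT, and 0 were higher and 1 lower in MYC tumors. Their mean was 5.55 to 5.65 in LT NTL, where Cdh19 was highest, and 5.65 to 5.74 in the shared controls. The markers S100b and Foxd3 were below the first quartile in all LT NTL arrays and each in 3 of 4 shared controls, so they do not set these groups apart. Both were named after their values were seen. Sox10, the transcription factor of these cells, averaged 5.07 ± 0.14 in LT NTL (n = 5) and 5.18 ± 0.15 in the shared controls (n = 4), and it fell by 0.38 in DEN tumors against NTL (adjusted p = 0.00403). In LT tumors Ncam1 and Pmp22 rose by 1.03 ± 0.29 and 0.78 ± 0.22 (adjusted p = 0.00996 and 0.0109), and both are also expressed outside Schwann cells.

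The rises and falls in tumors were next compared between models, as differences of the tumor to NTL changes. For Cdh1, the change in DEN exceeded that in MYC by 5.34 ± 0.93 log2 units (adjusted p = 0.00018), and for Cdh17 by 3.89 ± 0.79 (adjusted p = 0.000993), where 15.1% of all genes were called. The Cdh17 change in DEN also exceeded that in LT, by 2.81 ± 0.79 (adjusted p = 0.0167, but 0.0565 without LT tumor replicate 3 and 0.109 with only the 4 groups in the fit), and for Cdh1 the DEN change exceeded the LT change by 2.74 ± 0.93 (adjusted p = 0.0454), where 13.9% of all genes were called. The Cdh1 call was lost in 15 of 18 fits that left out an array, with 1.58 and an adjusted p of 0.256 without LT tumor replicate 2, and also with arrays of one stem averaged (2.25, adjusted p = 0.156). For Cdh5, the LT change exceeded the MYC change by 1.03 ± 0.28 (adjusted p = 0.0149), where 12.4% of all genes were called. Without LT tumor replicate 1 that difference was 0.65 (adjusted p = 0.089), and the call was also lost with only the 4 groups in the fit (adjusted p = 0.0776) and with the replicate block (0.89, adjusted p = 0.0511). The Cdh5 change in DEN minus that in LT was -0.46 ± 0.26 (adjusted p = 0.258). Limma called no such difference for Cdh2 or Cdh19 (0 of 6), of which 1, that of Cdh2 between DEN and MYC (-0.41 ± 0.20), had an unadjusted p under 0.05.

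Of the other cadherins, 22 were measured, and most did not pass the test. In DEN tumors 2 were higher and 2 lower than in NTL, in LT tumors 5 were higher and 0 lower, and in MYC tumors 1 was higher and 2 were lower. Cdhr2, a cadherin of the brush border that links microvilli, rose by 2.00 ± 0.46 in DEN tumors (adjusted p = 0.00124). Its values were 5.59 to 9.16 in DEN tumors, 4.98 to 5.24 in DEN NTL and 4.44 to 4.76 in DEN controls. Cdh6, of kidney tubule and bile duct cells, rose by 0.67 ± 0.25 (adjusted p = 0.0385), and Cdh16, a relative of Cdh17 in kidney, fell by 0.28 (adjusted p = 0.00378). In LT tumors Cdh3, P-cadherin, rose by 0.73 ± 0.19 (adjusted p = 0.00689), and Cdhr5, the partner of Cdhr2, by 0.64 ± 0.20 (adjusted p = 0.02). In MYC tumors Cdh4 and Cdh24 fell by 0.40 and 0.29 (adjusted p = 0.0352 and 0.0392). Cdh9 was called in both LT and MYC tumors (0.50 ± 0.13 and 0.41 ± 0.13, adjusted p = 0.00453 and 0.0191), but its means of 3.22 to 3.84 in all groups lay below the first quartile.

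Several cadherin genes lie side by side in the genome, by the RefSeq order of genes in assembly GRCm38.p6. Cdh1 lies between Cdh3 and Tango6. Cdh3 did not follow Cdh1 in DEN tumors (0.33 ± 0.17, adjusted p = 0.129) or in MYC tumors (-0.17 ± 0.19, adjusted p = 0.584). Cdh5 lies next to Cdh11, a cadherin of mesenchymal cells, which rose in LT tumors (0.50 ± 0.11, adjusted p = 0.00162) and differed by -0.22 ± 0.10 in DEN tumors (adjusted p = 0.0846). Cdh17 lies between Gem, a small GTPase, which fell by 1.00 in DEN (adjusted p = 0.00222) and by 0.80 in MYC tumors (adjusted p = 0.0432), and Pdp1, a phosphatase that activates pyruvate dehydrogenase. Pdp1 rose in every model, by 1.44 ± 0.16 (DEN), 0.91 ± 0.19 (LT) and 0.63 ± 0.19 (MYC) (adjusted p = 5.2e-08, 0.000885 and 0.015), also in MYC tumors, in which Cdh17 was near the lower limit. Cdh19 lies between Cdh7 and Dsel, and neither was called in any tumor to NTL comparison, with adjusted p-values of 0.193 to 0.799.

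Genes with levels most like those of Cdh1 over the 35 arrays were the cholesterol exporter Abca1 (r = 0.871), Tent5a, a poly(A) polymerase (0.856), and the transcription factor Foxp1 (0.849). Foxp1 averaged 9.26 ± 0.10 in DEN tumors and 8.52 ± 0.03 in DEN NTL (n = 5 each), and 8.15 ± 0.41 in MYC tumors (n = 5) and 8.47 ± 0.03 in MYC NTL (n = 3). For Cdh2 they were Atl3, which shapes the endoplasmic reticulum (0.852), Dlat, a subunit of pyruvate dehydrogenase (0.837), and Akr1c6, a steroid dehydrogenase (0.811). Among the cadherins themselves, the strongest pairs over the 35 arrays were Cdh5 with Cdh17 (r = 0.672), Cdh1 with Cdh17 (0.571) and Cdh1 with Cdh2 (-0.56). All points of these correlations share the groups, so they describe the set of arrays and were given no p.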

How the data were processed

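Liver RNA (100 ng per sample, RNA integrity number above 8, per the labels' protocols) of 35 mouse samples was hybridised to Affymetrix whole-transcript arrays. The authors deposited log2 values made with RMA, per the submitters' processing notes. RMA corrects background, equalises arrays and summarises probes, so a shift common to all genes of an array is removed. No version or genome build is named there. Array medians lay between 5.594 and 5.73. Precision is limited by how many arrays each group has.

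Of 35556 probe sets, 21218 had a single gene symbol, 1881 several and 12457 none in the platform annotation. Each of 18820 genes was represented by its brightest single-symbol probe set (1386 genes had several). A mean per group was fitted over all 35 arrays with limma 3.58.1 in R 4.3.3 (lmFit, eBayes), p-values were adjusted over all genes by Benjamini-Hochberg, and genes under 0.05 were called. The method was tested on simulated data with independent arrays and the same spread of a gene in all groups. Unequal spreads and shared stems were not covered. Exact two-sided permutation tests of each cadherin in 9 comparisons of 2 groups were adjusted over 45 tests. They shuffled single arrays, also those that share a stem. Replicates are separate samples by their labels. No arrays were identical (highest correlation 0.997157).

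The cadherins and gene lists were chosen with earlier results of these data known. Named genes were the cadherins, per list and tumor to NTL comparison up to 2 called genes with the largest change in the direction of most and 1 in the other, the 3 genes most correlated with each cadherin, and neighbouring genes, apart from those said to be chosen after their values were seen. Same-numbered arrays deviated together (every r over 0.1) in 1 comparison, LT tumor against control (0.137 to 0.233, 3 pairs), and the blocked values stand beside it. Alternatives were the groups in the fit, centring, probe set choice, a filter on dim genes, eBayes settings, array weights, averaging of arrays of one stem, the replicate block, a term for high Xist, the permutation test and leaving out each array.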

Additional observations from a re-analysis of the deposited data

Results flagged for a closer look

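Cdh17 in DEN control replicate 5 was 3.765, apart from the other 4 controls (gap 0.889 of the group's range). It was the only such value among 30 groups tested, where chance gives about 1 in 20, and it lies below the first quartile of its array. The change from NTL to tumor differed between models in 5 of 15 tests. These were Cdh1 in DEN against MYC (5.341) and DEN against LT (2.743), Cdh17 in DEN against MYC (3.888) and DEN against LT (2.806), and Cdh5 in LT against MYC (1.03), all in log2 units. The causes were not tested.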

How the results depend on the processing

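The calls of Cdh1, Cdh5 and Cdh17 in DEN tumors against NTL, of Cdh1 and Cdh17 between DEN and MYC, of 4 cadherins in DEN tumors against controls, and of Cdh19 in LT NTL kept their direction and side of the threshold whichever array was left out and in the other limma settings. The permutation test, not run for differences between models, kept the DEN calls of Cdh1, Cdh5 and Cdh17 (adjusted p = 0.0357) and lost those of Cdh19 in DEN tumors against controls and in LT NTL (adjusted p = 0.055 in both). It took each array as a unit, although the 5 DEN tumors came from 3 stems, and was not run with stems as units. With only the compared groups in the fit, Cdh19 in DEN tumors against NTL was called at -0.9675 (adjusted p = 0.0224), while Cdh5 in LT (1.035) and Cdh1 in MYC tumors (-2.58) were not. The permutation test lost these 2 calls as well (adjusted p = 0.0575 and 0.201). Cdh19 in DEN tumors was called as well without dim genes (-0.9675), with centring (-0.9996) and with array weights (-0.9763), and Cdh2 in MYC tumors with array weights (0.3024).

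Signs turned for 10 uncalled results. With centring these were Cdh1 in LT (-0.03032) and Cdh5 in MYC tumors (-0.02339) against NTL and Cdh2 in DEN tumors against controls (-0.009374). Others were Cdh1 in LT tumors with weights (-0.159), Cdh2 in DEN tumors against controls with stems averaged (-0.03138) and Cdh17 in MYC tumors against controls with the Xist term (0.003442). The replicate block turned Cdh1 in LT (-0.02809) and Cdh17 in MYC tumors (-0.1676), Cdh17 in MYC NTL (0.066) and Cdh2 between LT and MYC (0.03374). Same-numbered arrays of 2 groups share a number and no mouse identifier stem, also in LT tumor against control. The causes were not tested.

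The number of the 5 cadherins called became 0 in LT and MYC tumors against NTL with only the compared groups, and 2 in MYC with weights. In LT tumors against controls it was 0 with only the compared groups, weights, stems averaged or the Xist term, and 1 with the block. In MYC tumors against controls, whose arrays share no stem, it was 2 with only the compared groups, weights or stems averaged. In NTL against controls it was 1 in DEN and 3 in MYC with only the compared groups, and 2 in LT and 3 in MYC with weights. Between LT and MYC it was 0 with only the compared groups or the block and 2 with stems averaged. Between DEN and LT it was 1 with only the compared groups, trend and robust eBayes, stems averaged or the Xist term.

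Leaving out 1 array at a time also turned signs of uncalled results. Against NTL the ranges were -0.8606 to 1.185 for Cdh1 in LT, -0.1213 to 0.09739 for Cdh5 and -0.04239 to 0.0981 for Cdh17 in MYC tumors. Against controls they were -0.07737 to 1.969 for Cdh1 in LT, -0.09029 to 0.1033 for Cdh2 in DEN and -0.05393 to 0.04118 for Cdh17 in MYC tumors, and for Cdh17 -0.07124 to 0.0233 in LT NTL and -0.1041 to 0.0364 in MYC NTL. Between models they were -0.1629 to 0.03757 for Cdh2 (LT and MYC) and -0.8264 to 0.354 for Cdh19 (DEN and LT). Cdh19 in DEN tumors against NTL ranged from -1.22 to -0.7991. The cadherins called ranged from 3 to 4 in DEN tumors against NTL, 0 to 1 in LT and 0 to 2 in MYC tumors against controls, and between models 1 to 2 (DEN and LT), 2 to 3 (DEN and MYC) and 0 to 2 (LT and MYC).

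Counts over all genes moved as well. In tumors against NTL they were 3838 in LT (615 to 5072) and 4106 in MYC (2728 to 5730). In LT tumors against controls they were 3107 (0 to 4542), with 0 in limma when only the compared groups entered, where 3751 had an unadjusted p under 0.05. In NTL against controls they were 37 in DEN (26 to 297), 454 in LT (160 to 2013) and 721 in MYC (299 to 2645). Between models they were 2841 (2100 to 4388) for DEN and MYC, 2326 (1231 to 3105) for LT and MYC, and 2618 (1719 to 3423) for DEN and LT. Signal near the lower limit restricts Cdh17 and Cdh19.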
